A study of Mus musculus with 10 samples.

Results

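The 8 genes described here serve the conversion of arachidonic acid into prostaglandins, leukotrienes and related products: Ptgs1, Ptgs2, Ptges, Alox5, Alox5ap, Lta4h, Ltc4s and Alox15. They encode enzymes, except Alox5ap, which encodes a helper protein. They were taken by symbol from the gene annotation, and all 8 had a row among the 55385 mouse genes of the deposited table. Arachidonic acid is released from membranes by phospholipases and then enters either of 2 branches. In the cyclooxygenase branch, Ptgs1 (cyclooxygenase-1, made constitutively in many cells) or Ptgs2 (cyclooxygenase-2, the inducible enzyme) forms prostaglandin H2, which Ptges (the microsomal prostaglandin E synthase) converts to prostaglandin E2. In the lipoxygenase branch, Alox5 (5-lipoxygenase), held at the nuclear membrane by its helper Alox5ap (the 5-lipoxygenase activating protein, FLAP), forms leukotriene A4. Lta4h hydrolyses leukotriene A4 to leukotriene B4, an attractant for neutrophils that neutrophils themselves make, and Ltc4s joins it to glutathione to give leukotriene C4, a product best known from mast cells and eosinophils. Alox15 oxygenates arachidonic acid at another carbon, and its products include precursors of lipoxins.

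The RNA came from Tomato+ neutrophils of squamous cell carcinomas grafted on CatchupIVM-red mice, a strain in which the red Tomato protein is tied to the neutrophil gene Ly6g. The grafted tumour cells were either the parental Sox2low cells, called control here, or Sox2Hi cells, which carry high Sox2, a transcription factor of stem cells. The library descriptions also carry the name C57 for every library, and GFP for the control and Sox2 for the Sox2Hi grafts, without saying what C57 or GFP refers to. Tumours were left naive or treated with anti-PDL1/CD40 agonist, an immunotherapy that blocks a checkpoint ligand and stimulates the receptor CD40 on antigen-presenting cells. Each graft gave 3 naive and 2 treated libraries, and the study asked whether Sox2 in the tumour cells changes how neutrophils respond to interferons. The labels do not say whether replicates came from separate animals or from pools, give no age, dose or time, and do not say how the Sox2Hi cells were made. In each group 1 library held 4 to 8 counts of Ddx3y, a gene of the Y chromosome, and the other libraries held 1007 to 6618, so the libraries of a group were not all repeats of 1 source of RNA. The p-values measure only the spread between these libraries.

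Libraries held between 13815734 and 22986193 counts. Levels are counts per 1000000 (CPM), scaled by trimmed mean of M-values (TMM) factors from the 11274 genes that averaged 5 CPM or more, called the expressed-gene scaling. In each library 1.58% to 8.37% of counts could be a background that also covers silent receptor genes, and this share was lowest in the control treated libraries. When all 29648 genes that pass the low-count filter of edgeR set the factors instead (the all-gene scaling), the background enters the factors. The median log2 fold change of the expressed genes then moved from -0.18 to 0.36 for treatment in control tumours, from 0.09 to -0.18 for treatment in Sox2Hi tumours, from -0.05 to 0.32 between naive grafts, from 0.04 to -0.41 between treated grafts and from 0.02 to -0.79 for the interaction. Among the neutrophil markers, S100a8, S100a9, Il1r2 and Trem1 were abundant in every group, whereas Ly6g itself averaged 2.47 CPM before and 14.6 CPM after treatment of control tumours, and 2.40 and 8.06 CPM for Sox2Hi tumours. The 20 neutrophil markers summed to 14782 to 24166 CPM in naive and 46099 to 48257 CPM in treated libraries of control tumours, and to 13822 to 19985 CPM and 25064 to 26084 CPM in those of Sox2Hi tumours. All markers of macrophages and dendritic cells, mast cells, eosinophils and basophils, platelets, keratinocytes, and fibroblasts and endothelium had reads in every group. In bulk samples, fewer cells of a type and less RNA per cell cannot be told apart.

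Promoters of 6 of the 8 genes (not Alox5ap and Alox15) were matched by symbol. Those of Ptgs2, Ptgs1 and Ltc4s are shown because these are the 3 of the 6 that passed the test on treatment of control tumours: Ptgs2 rose while Ptgs1, which encodes the sister enzyme, and Ltc4s fell. They are RefSeq sequences of GRCm38.p6, from 250 bases before to 25 bases after the start site, at chr1:150099781-150100055 (plus strand), chr2:36230176-36230450 (plus strand) and chr11:50238508-50238782 (minus strand). Capitals mark matches on either strand to the letters GAGGAA (the core bound by PU.1, a myeloid factor), TTNNGCAA (C/EBP), CGTCA (part of the cyclic AMP element) and CACGTG (an E-box).
Ptgs2: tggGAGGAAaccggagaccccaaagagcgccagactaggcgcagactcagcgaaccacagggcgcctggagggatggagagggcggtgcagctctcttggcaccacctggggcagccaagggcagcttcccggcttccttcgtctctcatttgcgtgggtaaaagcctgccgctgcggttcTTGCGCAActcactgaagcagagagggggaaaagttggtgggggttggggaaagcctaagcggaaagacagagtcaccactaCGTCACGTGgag
Ptgs1: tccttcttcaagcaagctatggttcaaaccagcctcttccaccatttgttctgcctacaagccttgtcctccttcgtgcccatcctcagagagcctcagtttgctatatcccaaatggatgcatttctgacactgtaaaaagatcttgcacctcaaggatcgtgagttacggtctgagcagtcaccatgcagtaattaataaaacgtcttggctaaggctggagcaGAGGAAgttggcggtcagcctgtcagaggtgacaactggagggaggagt
Ltc4s: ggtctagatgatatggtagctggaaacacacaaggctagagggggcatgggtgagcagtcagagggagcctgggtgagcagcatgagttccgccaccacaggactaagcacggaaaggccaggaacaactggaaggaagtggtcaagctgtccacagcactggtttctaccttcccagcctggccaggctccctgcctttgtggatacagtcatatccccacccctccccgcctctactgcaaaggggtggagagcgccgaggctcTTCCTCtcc
GAGGAA occurred once in each of the 6 promoters that were matched (these 3 and those of Ptges, Alox5 and Lta4h), against 28.3% of 32851 promoters of the same 300 base length, counted from 250 bases before to 50 after the start. Of the 6, the Ptgs2 promoter alone held CACGTG, found in 7.15% of promoters, which overlaps CGTCA (20.8% of promoters) just after the start. It alone also held TTNNGCAA (10.8% of promoters), from -69 to -62 relative to the start. GGGCGG (35.7% of promoters) was present once in Ptgs2 and Alox5 and was present 2 times in Ptges, and GGGNNNNNCC (50.8% of promoters) was in all but Ltc4s. The letters TATAAA (13.6%), TGACGTCA (1.79%), TTCNNNGAA (8.30%) and GAAANNGAAA (3.44%) were in none of the 6 windows. The 10 motifs were chosen after the data were seen, and a match is a description of letters, not of binding.

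All 8 genes passed the minimum of 5 CPM, but their levels differed by orders of magnitude. Per kb of exon, Alox5ap had 162 to 795 CPM and Ptgs2 had 110 to 243 CPM, and in every library these 2 genes were the highest of the 8. The other 6 genes lay between 0.68 and 16.0 CPM per kb. The libraries thus held abundant RNA for FLAP and cyclooxygenase-2 and little RNA for 5-lipoxygenase itself, the terminal synthases and 15-lipoxygenase. The expected background made up at most 0.461% of the counts of Ptgs2 and 0.23% of those of Alox5ap in any library. For the low genes it reached 13.1% of the counts of Ptgs1, 13.9% of Ptges, 9.74% of Alox5, 10.5% of Lta4h, 8.22% of Ltc4s and 27.5% of Alox15.

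**Figure D1:**
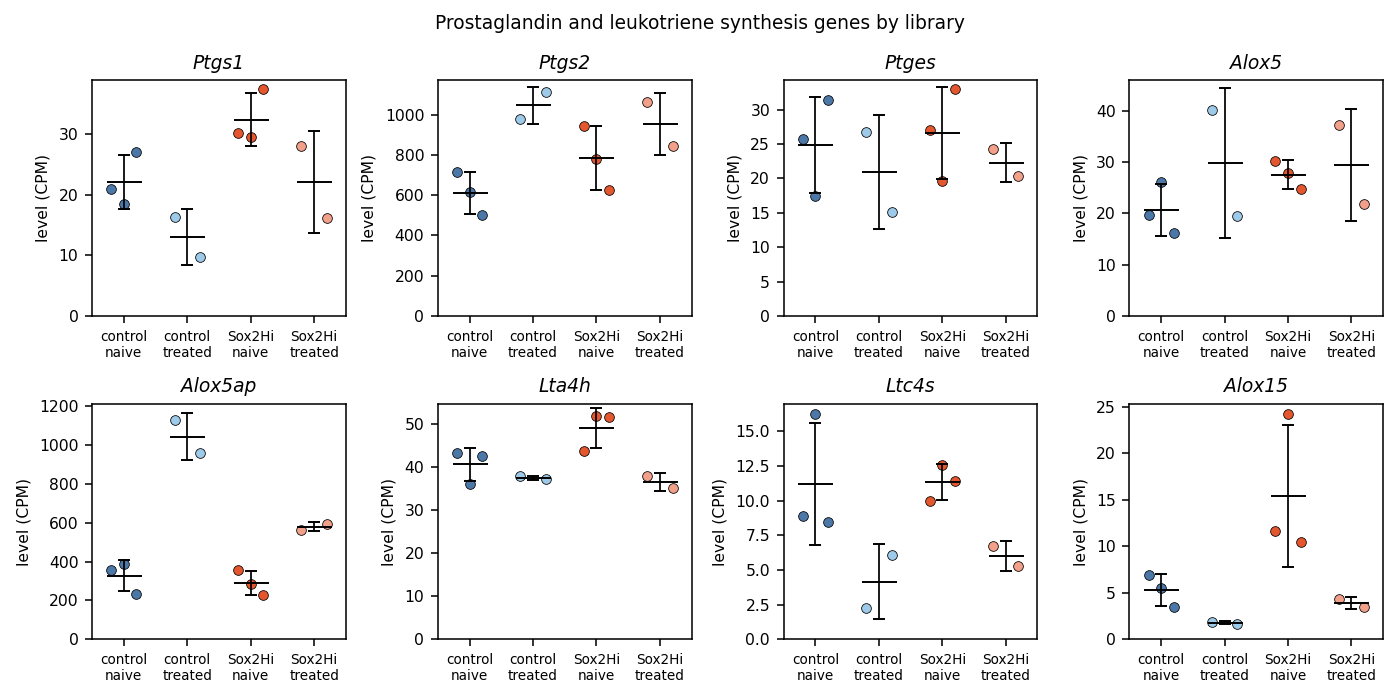
Level of each gene (CPM, expressed-gene scaling) in each of the 10 libraries, by group. Points are libraries, the wide bar is the group mean and the whiskers are 1 SD (n = 3 naive and n = 2 treated). Both control treated libraries lie above all other libraries for Alox5ap, at 955 and 1129 CPM, and all 3 Sox2Hi naive libraries lie above all others for Alox15, at 10.5 to 24.2 CPM.

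Ptgs2 (ENSMUSG00000032487, GRCm38 chromosome 1, 150100031 to 150108227, plus strand) measured 715, 615 and 503 CPM in control naive replicates 1 to 3 and 980 and 1112 CPM in control treated replicates 1 and 2. It measured 945, 780 and 628 CPM in Sox2Hi naive and 1062 and 845 CPM in Sox2Hi treated libraries. Both control treated values lay above all control naive values, whereas the Sox2Hi treated range overlapped the Sox2Hi naive range. In order of group means, control treated (1046 ± 93.5, SD, n = 2) came before Sox2Hi treated (953 ± 154, n = 2), Sox2Hi naive (784 ± 158, n = 3) and control naive (611 ± 106, n = 3), and the ranges of each pair of neighbours in this order overlapped.

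Ptgs1 (ENSMUSG00000047250, chromosome 2, 36230426 to 36252272, plus strand) is overlapped on the opposite strand by the predicted gene Gm43621. As the sources used here do not say whether counting used strand, the reads of the 2 cannot be told apart. In control tumours Ptgs1 measured 21.0, 18.4 and 27.0 CPM in naive and 16.3 and 9.71 CPM in treated libraries. In Sox2Hi tumours it measured 30.3, 29.5 and 37.5 CPM in naive and 28.1 and 16.2 CPM in treated libraries. Sox2Hi naive had the highest mean (32.4 ± 4.39), Sox2Hi treated (22.2 ± 8.40) and control naive (22.2 ± 4.43) overlapped, and control treated was lowest (13.0 ± 4.68). All Sox2Hi naive values lay above all values of the other groups. Ptges (ENSMUSG00000050737, chromosome 2, 30889471 to 30929863, minus strand), which overlaps a processed pseudogene on its own strand, measured 25.7, 17.5 and 31.3 CPM in naive and 26.8 and 15.1 CPM in treated control tumours. Its values in Sox2Hi tumours were 27.1, 19.7 and 33.0 CPM naive and 24.3 and 20.3 CPM treated. Its 4 groups overlapped one another throughout.

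Alox5ap (ENSMUSG00000060063, chromosome 5, 149264767 to 149288153, plus strand) measured 359, 386 and 235 CPM in control naive and 1129 and 955 CPM in control treated libraries. In Sox2Hi tumours it measured 354, 287 and 230 CPM in naive and 563 and 595 CPM in treated libraries. The 4 treated libraries lay above the 6 naive ones, with the control treated pair (1042 ± 123) apart from the Sox2Hi treated pair (579 ± 22.4) and the naive groups (means of 327 and 290) overlapping. The antisense gene Gm19719 and a small RNA lie on the opposite strand within Alox5ap. Alox5 (ENSMUSG00000025701, chromosome 6, 116410077 to 116461178, minus strand), the enzyme that FLAP serves, measured 19.6, 26.1 and 16.1 CPM in control naive and 40.2 and 19.5 CPM in control treated libraries. It measured 30.2, 27.8 and 24.7 CPM in Sox2Hi naive and 37.2 and 21.8 CPM in Sox2Hi treated libraries. In each treated group the replicates differed by more than the naive and treated means did, and all 4 groups overlapped.

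Lta4h (ENSMUSG00000015889, chromosome 10, 93453411 to 93484875, plus strand) had the narrowest relative spread of the 8. It measured 43.2, 36.1 and 42.6 CPM in naive and 37.9 and 37.3 CPM in treated control tumours, and 43.7, 51.9 and 51.7 CPM in naive and 38.0 and 35.1 CPM in treated Sox2Hi tumours. Its Sox2Hi naive values were the highest and the other 3 groups overlapped. Ltc4s (ENSMUSG00000020377, chromosome 11, 50236461 to 50238616, minus strand), which has the antisense gene Gm26542 on its opposite strand, had 31 to 232 counts a library. It measured 8.90, 16.2 and 8.44 CPM in naive and 2.24 and 6.08 CPM in treated control tumours, and 9.98, 12.6 and 11.4 CPM in naive and 6.76 and 5.25 CPM in treated Sox2Hi tumours. All treated values lay below all naive values, and the 2 naive groups overlapped, as did the 2 treated groups.

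Alox15 (ENSMUSG00000018924, chromosome 11, 70344152 to 70352031, minus strand) had from 26 to 439 counts a library. It measured 6.96, 5.53 and 3.48 CPM in naive and 1.88 and 1.67 CPM in treated control tumours, and 11.6, 24.2 and 10.5 CPM in naive and 4.33 and 3.48 CPM in treated Sox2Hi tumours. Sox2Hi naive came first (15.4 ± 7.62), then control naive (5.33 ± 1.75), Sox2Hi treated (3.91 ± 0.605) and control treated (1.77 ± 0.149). The middle 2 groups overlapped, and the first and the last stood apart from them.

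Treatment in control tumours asked how the immunotherapy changes neutrophils facing Sox2low cells. FLAP RNA rose 3.19-fold and cyclooxygenase-2 RNA rose 1.71-fold, while the RNAs for cyclooxygenase-1, leukotriene C4 synthase and 15-lipoxygenase fell to 0.586, 0.377 and 0.334 of their naive levels. Of the 8 genes, 2 rose, 3 fell and 3 did not pass the test (edgeR quasi-likelihood F-test, adjusted p under 0.05 over all genes tested). Among all 11274 genes 57.3% passed, 24.1% as higher and 33.1% as lower, so 5 of 8 is a share near the background. The median log2 fold change of the 8 genes was -0.18, the same as the median over all genes.

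Alox5ap had a log2 fold change of 1.67 (SE 0.23, edgeR adjusted p = 0.000356) and Ptgs2 one of 0.78 (SE 0.21, adjusted p = 0.00958). Alox15 had a log2 fold change of -1.58 (SE 0.44, adjusted p = 0.0102), Ltc4s one of -1.41 (SE 0.40, adjusted p = 0.0123) and Ptgs1 one of -0.77 (SE 0.29, adjusted p = 0.0403). For Alox5 the value was 0.54 with a 95% interval from -0.16 to 1.23, for Ptges -0.25 with an interval from -0.93 to 0.43, and for Lta4h -0.11 with an interval from -0.45 to 0.22. The 5 called genes kept their direction in every alternative, and only Alox5ap kept its call in all 23, with log2 fold changes from 1.17 to 2.36. Under the all-gene scaling 3 of the 8 were called, all higher (Ptgs2 at 1.33, Alox5 at 1.09 and Alox5ap at 2.24, against 18.7% of 29648 genes called higher), and none lower, as Ptgs1 moved to -0.25, Ltc4s to -0.82 and Alox15 to -1.02.

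The call of Ptgs1 was lost in 12 of 23 alternatives, with values from -1.29 to -0.16. Beside the scalings over all genes these were RLE factors (-0.62, edgeR adjusted p = 0.0814), DESeq2 (-0.62, adjusted p = 0.0569), background subtraction (-0.76, adjusted p = 0.0615), a covariate for the presence of Ddx3y reads (-0.75, adjusted p = 0.0585), the replicate block by description number (-0.74, adjusted p = 0.0889) and 5 fits that leave out a library. Single libraries thus decided calls. Ptgs1 was not called without control naive replicate 1 (-0.81, edgeR adjusted p = 0.0645), control naive replicate 3 (-0.60, adjusted p = 0.121), control treated replicate 2 (-0.30, adjusted p = 0.478), Sox2Hi naive replicate 1 (-0.77, adjusted p = 0.0524) or Sox2Hi treated replicate 2 (-0.64, adjusted p = 0.0576). Ltc4s was not called without control treated replicate 1 (-0.76, adjusted p = 0.126). Alox15 was not called without control treated replicate 1 (-1.55, adjusted p = 0.0593) or replicate 2 (-1.35, adjusted p = 0.0978). Alox5 was called without control treated replicate 2 (1.11, adjusted p = 0.019). Ptgs2 lost its call only when library totals replaced the factors (0.27, adjusted p = 0.275).

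Markers of several other cell types moved with treatment of control tumours. The 10 mast cell markers summed to 64.4 to 273 CPM in control naive and 28.7 to 46.3 CPM in control treated libraries, and the mast cell protease Cma1 averaged 50.5 and 1.48 CPM, with 9 of the 10 lower in mean and Kit at 4.43 and 6.57 CPM. The 14 fibroblast and endothelial markers summed to 377 to 906 and 143 to 173 CPM, the 10 eosinophil and basophil markers to 44.2 to 71.7 and 31.4 to 43.7 CPM, and the 8 platelet markers to 44.5 to 87.6 and 35.0 to 40.4 CPM. The 7 erythroid markers summed to 620 to 1606 CPM in naive and 52.4 to 311 CPM in treated libraries. The part of these cells in the lower Ptgs1, Ltc4s and Alox15 was not tested. In the other direction, the 12 T and NK cell markers summed to 64.1 to 106 CPM in naive and 161 to 549 CPM in treated libraries, and the 8 B and plasma cell markers to 98.4 to 160 and 164 to 331 CPM. The 20 neutrophil markers summed to 14782 to 24166 CPM in naive and 46099 to 48257 CPM in treated libraries. The 16 macrophage and dendritic cell markers, at 974 to 1454 and 1272 to 1905 CPM, overlapped. The part of these lists in the higher Alox5ap and Ptgs2 was not tested either. The 15 keratinocyte markers overlapped between treated and naive libraries.

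**Figure D2:**
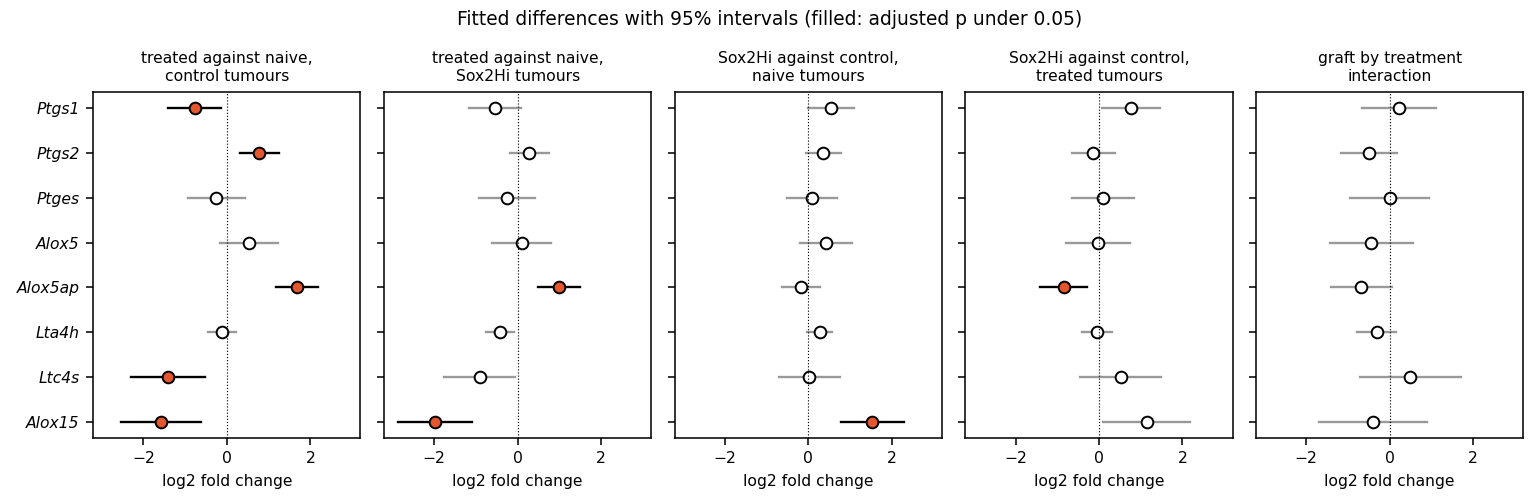
Fitted log2 fold change of each gene in the 5 comparisons, with 95% intervals (horizontal lines). Filled points passed an adjusted p of 0.05 in edgeR: 5 for treatment in control tumours, 2 for treatment in Sox2Hi tumours, 1 between naive grafts, 1 between treated grafts and 0 for the interaction. No filled point changed sign in any alternative, whereas Ptges, Lta4h and Alox5 changed sign for treatment in at least 1 graft under the all-gene scaling.

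In Sox2Hi tumours, treatment raised FLAP RNA 1.99-fold and lowered 15-lipoxygenase RNA to 0.254 of the naive level. The other 6 genes did not pass the test. Here 21.6% of all genes were called, 15.0% higher and 6.57% lower, so 2 of 8 called is again near the background. Alox5ap had a log2 fold change of 1.00 (SE 0.23, edgeR adjusted p = 0.016) and Alox15 one of -1.98 (SE 0.41, adjusted p = 0.0103). The values were -0.91 for Ltc4s (95% interval -1.77 to -0.05, adjusted p = 0.109) and -0.43 for Lta4h (interval -0.76 to -0.09, adjusted p = 0.0655), and in both genes the treated libraries lay below all naive ones. Ptgs1 was at -0.55 (interval -1.17 to 0.08) and likewise showed no overlap. The share of all genes without overlap was not counted, here or in the other comparisons. A lack of overlap is thus only a description. Ptgs2 was at 0.28 (interval -0.19 to 0.75), Ptges at -0.25 (interval -0.93 to 0.42) and Alox5 at 0.10 (interval -0.60 to 0.80), and the ranges of these 3 overlapped between treated and naive libraries.

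The higher Alox5ap lost its call in 4 of 23 alternatives. It was not called under the all-gene scaling (0.73, edgeR adjusted p = 0.0636) or over every gene with a count (0.63, adjusted p = 0.185). Nor was it called without Sox2Hi naive replicate 3 (0.85, adjusted p = 0.0669) or Sox2Hi treated replicate 2 (0.89). The lower Alox15 was not called without Sox2Hi treated replicate 2 (-1.89). Lta4h passed the test in 10 of 23 alternatives, with DESeq2 (-0.52, adjusted p = 0.00786) and limma-voom (-0.43, adjusted p = 0.0275) among them, and Ltc4s passed it in 6 of 22, with DESeq2 (-1.01, adjusted p = 0.0404) and limma-voom (-0.94, adjusted p = 0.0289) among them. Leaving out control naive replicate 2 (-0.50), control treated replicate 1 (-0.49) or control treated replicate 2 (-0.49) gave the call of Lta4h, and leaving out either control treated replicate (-0.98) gave that of Ltc4s. Eosinophil and basophil markers moved with Alox15, summing to 71.5 to 102 CPM in naive and 29.6 to 41.9 CPM in treated libraries, with the eosinophil receptor Ccr3 at 36.3 and 8.86 CPM. Of the 10 markers, 6 had a lower mean in treated libraries, and 4 (Il5ra, Ear1, Ear2 and Ear6) did not, as Il5ra was at 8.05 and 8.62 CPM and Ear2 at 1.86 and 4.47 CPM. Fibroblast and endothelial markers went from 552 to 768 CPM down to 173 to 402 CPM, and mast cell markers were at 68.9 to 116 and 49.1 to 83.5 CPM. Erythroid markers went from 274 to 586 CPM down to 26.5 to 67.0 CPM, and B and plasma cell markers from 208 to 895 CPM down to 90.4 to 186 CPM. The part of these lists in the lower Alox15 was not tested. Beside the higher Alox5ap, T and NK cell markers were at 42.0 to 164 CPM in naive and 213 to 323 CPM in treated libraries. The neutrophil markers summed to 13822 to 19985 CPM in naive and 25064 to 26084 CPM in treated libraries. The part of these lists in the higher Alox5ap was not tested.

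**Figure D3:**
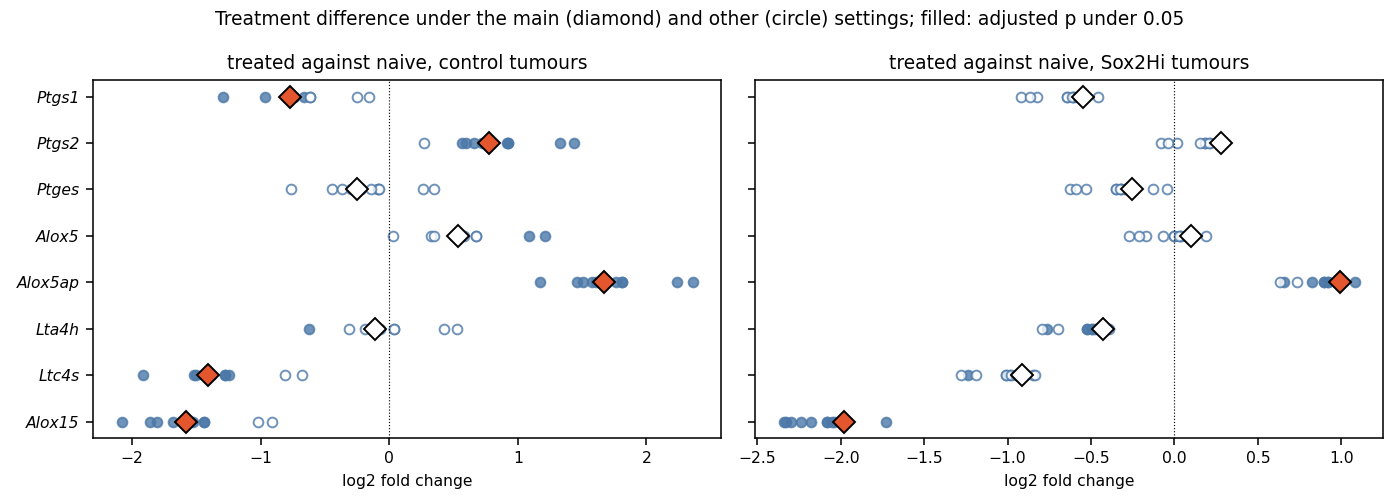
Log2 fold change on treatment in control (left) and Sox2Hi tumours (right) under the reported setting (diamonds) and under the other scalings, filters, tests, blocks and covariates (circles), without the fits that leave out a library. Filled symbols passed an adjusted p of 0.05. Alox5ap stays filled throughout in control tumours, between 1.17 and 2.36, whereas Ptges and Lta4h in control tumours, and Ptgs2 and Alox5 in Sox2Hi tumours, have circles on both sides of 0.

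Between naive tumours, libraries from Sox2Hi grafts had 2.90 times the 15-lipoxygenase RNA of those from control grafts. None of the other 7 genes passed the test. Over all genes 14.0% were called, 2.10% as higher and 11.9% as lower. Alox15 had a log2 fold change of 1.53 (SE 0.34, edgeR adjusted p = 0.0169), with every Sox2Hi value above every control value. It was not called in a fit of the naive groups alone (1.59, adjusted p = 0.0551), without control naive replicate 2 (1.65, adjusted p = 0.057), without Sox2Hi naive replicate 2, its highest library (1.05, adjusted p = 0.0538), or without Sox2Hi naive replicate 3 (1.75, adjusted p = 0.067). Beside it, eosinophil and basophil markers were at 71.5 to 102 CPM in Sox2Hi and 44.2 to 71.7 CPM in control naive libraries, ranges that touch. B and plasma cell markers were higher in Sox2Hi naive libraries without overlap (208 to 895 against 98.4 to 160 CPM), and erythroid markers were lower without overlap (274 to 586 against 620 to 1606 CPM). The part of these lists was not tested. Ccr3 averaged 36.3 and 22.3 CPM, Siglecf 16.7 and 11.2 CPM, and Epx, an eosinophil granule peroxidase, 1.49 and 1.56 CPM, and 4 of the 10 markers had a higher mean in Sox2Hi naive libraries.

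The cyclooxygenase genes were at 0.55 for Ptgs1 (95% interval -0.00 to 1.10, edgeR adjusted p = 0.19) and 0.36 for Ptgs2 (interval -0.06 to 0.78, adjusted p = 0.269) in the same comparison. The title numbers pair the naive libraries, and a fit of the naive libraries with the replicate number as a block called 3 of the 8 genes, all higher, against 8.30% of all genes: Alox15, Ptgs1 (0.61, adjusted p = 0.0107) and Ptgs2 (0.41, adjusted p = 0.0417). With the block over all 10 libraries, Ptgs1 passed (0.56, adjusted p = 0.0488) and Ptgs2 did not. Limma-voom called 3 of the 8, Alox15, Ptgs1 (0.55, adjusted p = 0.0196) and Alox5 (0.51, adjusted p = 0.0471), against 36.6% of all genes. Lta4h was at 0.27 (interval -0.02 to 0.57), Alox5 at 0.42 (interval -0.21 to 1.05), Ptges at 0.10 (interval -0.50 to 0.69), Ltc4s at 0.02 (interval -0.71 to 0.76) and Alox5ap at -0.17 (interval -0.63 to 0.29). For Alox5ap, the values of the 2 naive groups differed by less than the spread between replicates, and the sign turned under the all-gene scaling (0.21). Matched by title number, each Sox2Hi value was below its control value for Alox5ap and above it for Ptges, Alox5 and Lta4h. The block fit of the naive libraries called none of these genes.

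After treatment, FLAP RNA was lower in libraries of Sox2Hi than of control tumours, at 0.556 of the control level. Alox5ap was the only gene of the 8 called, with a log2 fold change of -0.85 (SE 0.26, edgeR adjusted p = 0.0409), and both Sox2Hi values lay below both control values. Over all genes 20.9% were called, 15.0% as higher and 5.87% as lower. The direction held in all 23 alternatives, from -1.40 to -0.55, but the call was lost in 10 of them. These were the minimum of 20 CPM (-0.71), library totals (-0.55), limma-voom (-0.84, adjusted p = 0.0726), subtraction of the background (-0.84, adjusted p = 0.0887), and the fits without control naive replicate 1 (-0.85), control treated replicate 1 (-0.82), control treated replicate 2 (-1.09), Sox2Hi naive replicate 2 (-0.85), Sox2Hi treated replicate 1 (-0.81) or Sox2Hi treated replicate 2 (-0.99). The neutrophil markers were lower too, at 46099 to 48257 CPM in control treated and 25064 to 26084 CPM in Sox2Hi treated libraries. Per 1000 reads of these markers, Alox5ap averaged 22.1 in control treated and 22.6 in Sox2Hi treated libraries. The part of the neutrophil markers in the lower Alox5ap was not tested. Mast cell markers (28.7 to 46.3 against 49.1 to 83.5 CPM) and platelet markers (35.0 to 40.4 against 45.1 to 45.8 CPM) were higher in the Sox2Hi treated libraries, and fibroblast and endothelial markers were at 143 to 173 against 173 to 402 CPM, just without overlap.

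The other differences between treated tumours did not pass. Alox15 was at 1.14 (95% interval 0.10 to 2.18, edgeR adjusted p = 0.108) and Ptgs1 at 0.77 (interval 0.08 to 1.46, adjusted p = 0.102). Alox15 did not overlap between the groups and Ptgs1 did, by the Sox2Hi treated replicate 2 at 16.2 against the control treated replicate 1 at 16.3 CPM. Alox15 passed without Sox2Hi naive replicate 2 (1.14, adjusted p = 0.0493) and with library totals (1.45, adjusted p = 0.0383). Ptgs1 passed with library totals (1.10, adjusted p = 0.0417) and with the replicate block by title number (0.77, adjusted p = 0.0274), but not with the block by description number. The title numbers do not pair the treated libraries with each other, as their deviations correlated at -0.0952. Ltc4s was at 0.52 (interval -0.44 to 1.48), Ptges at 0.09 (interval -0.64 to 0.83), Ptgs2 at -0.13 (interval -0.65 to 0.38), Lta4h at -0.04 (interval -0.40 to 0.32) and Alox5 at -0.02 (interval -0.78 to 0.75).

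The graft by treatment interaction asks whether the response to treatment differed between Sox2Hi and control tumours. None of the 8 genes was called in edgeR, and none had an unadjusted p under 0.05, the smallest being 0.0653 for Alox5ap. Over all genes 19.8% were called, 16.9% as higher and 2.84% as lower. The difference in log2 response was -0.68 for Alox5ap (95% interval -1.41 to 0.05), -0.49 for Ptgs2 (interval -1.16 to 0.17), -0.44 for Alox5 (interval -1.43 to 0.56), -0.39 for Alox15 (interval -1.68 to 0.90) and -0.31 for Lta4h (interval -0.78 to 0.15). It was 0.49 for Ltc4s (interval -0.71 to 1.70), 0.23 for Ptgs1 (interval -0.65 to 1.10) and -0.00 for Ptges (interval -0.96 to 0.95). So a rise of Ptgs2 and falls of Ptgs1 and Ltc4s that passed in control tumours and not in Sox2Hi tumours are not shown to differ between them.

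The calls of the interaction depended on the scaling. Under the all-gene scaling 4 of the 8 were called, all lower: Alox5ap (-1.51, edgeR adjusted p = 0.00584), Ptgs2 (-1.32, adjusted p = 0.00943), Alox5 (-1.26, adjusted p = 0.0401) and Lta4h (-1.13, adjusted p = 0.014), where 16.2% of genes were called lower and the median of expressed genes was -0.79. DESeq2 called 2, Alox5ap (-0.92, adjusted p = 0.0435) and Lta4h (-0.56, adjusted p = 0.0463), against 29.8% of all genes, and limma-voom called 0 of the 8, against 24.4% of all genes. With the replicate block by title number, Alox5ap alone passed (-0.68, edgeR adjusted p = 0.0402), and with the block by description number it did not. The title number pairs the naive libraries and does not pair the treated libraries with each other.

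Ratios of 2 genes within a library need no scaling factor and are given as a description. Per kb, Ptgs2 reads outnumbered Ptgs1 reads by 28.9, 28.3 and 15.8 times in naive and 50.9 and 97.2 times in treated control tumours, and by 26.4, 22.4 and 14.2 times in naive and 32.0 and 44.1 times in treated Sox2Hi tumours. The balance of the cyclooxygenases was thus further toward Ptgs2 in every treated library than in every naive one. The ratio of Alox5ap to Alox5 was 52.8, 42.8 and 42.2 in naive and 81.1 and 141 in treated control tumours, and 33.9, 29.8 and 27.0 in naive and 43.7 and 79.0 in treated Sox2Hi tumours. Within each graft all treated values lay above all naive values, and the Sox2Hi naive values were below those of all other groups. For Ltc4s to Lta4h, the genes of the 2 fates of leukotriene A4, the ratio was 1.24, 2.71 and 1.19 in naive and 0.355 and 0.981 in treated control tumours, and 1.37, 1.46 and 1.33 in naive and 1.07 and 0.900 in treated Sox2Hi tumours. Every naive library had the ratio above every treated library. Alox15 per Alox5 ran from 0.354 to 1.45 in naive and from 0.0781 to 0.268 in treated libraries.

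Set against the summed reads of the 20 neutrophil markers, the 2 abundant genes parted. Alox5ap had 15.9 to 17.9 reads per 1000 marker reads in naive and 20.7 to 23.4 in treated control tumours, and 16.3 to 17.7 in naive and 22.5 to 22.8 in treated Sox2Hi tumours. Its treated values lay above its naive values, and by this measure the treated grafts overlapped. Ptgs2 had 25.5 to 35.7 in naive and 20.3 to 24.1 in treated control tumours, and 44.4 to 47.3 in naive and 32.4 to 42.4 in treated Sox2Hi tumours, so within each graft the treated values were the lower ones here. By this measure Ptgs1, Ptges, Alox5, Lta4h, Ltc4s and Alox15 also had lower means in treated than in naive libraries of each graft. The marker sum itself rose with treatment, and S100a8 and S100a9 made up 10.9% to 37.5% of its reads.

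**Figure D4:**
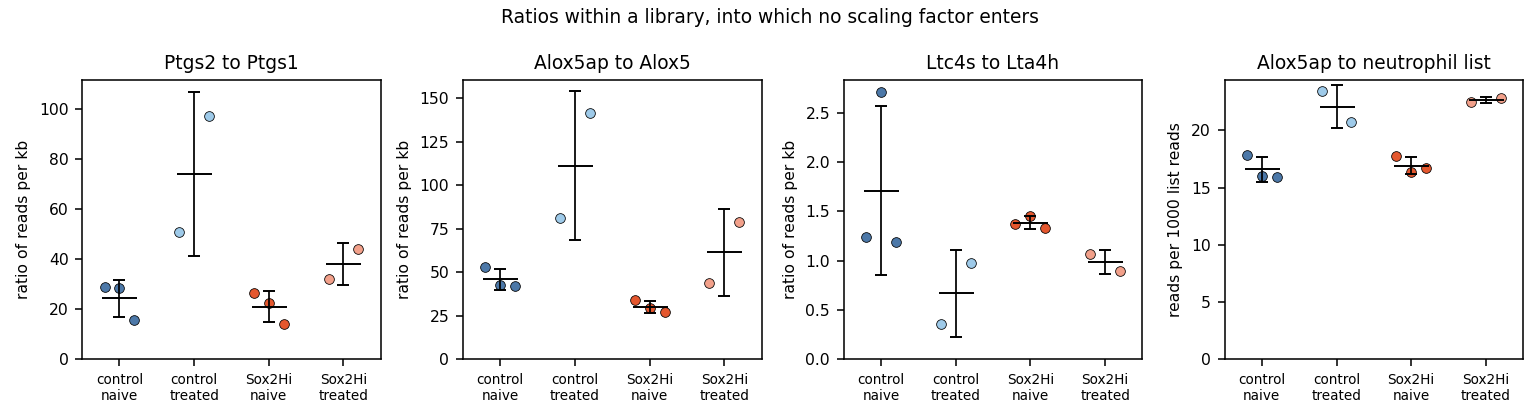
Ratios within each library, by group: Ptgs2 to Ptgs1, Alox5ap to Alox5 and Ltc4s to Lta4h as reads per kb, and Alox5ap reads per 1000 reads of the 20 neutrophil markers. Points are libraries, the wide bar is the mean and the whiskers are 1 SD (n = 3 naive and n = 2 treated). In the last panel the 4 treated libraries lie between 20.7 and 23.4 and the 6 naive ones between 15.9 and 17.9.

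Of 62 other genes of the pathway (phospholipases and helpers, other synthases and transferases, breakdown and transport, and receptors), 29 reached 5 CPM and were tested. With treatment, 8 rose, 4 fell and 17 did not pass in control tumours, and 5 rose, 1 fell and 23 did not pass in Sox2Hi tumours. Over all genes 24.1% were called higher and 33.1% lower in control tumours and 15.0% and 6.57% in Sox2Hi tumours, so the numbers that rose are near the background. Between grafts, 0 were higher and 2 lower among naive tumours (2.10% and 11.9% of all genes), and 1 was higher and 3 lower among treated tumours (15.0% and 5.87% of all genes). The interaction called 2 as higher and 1 as lower (16.9% and 2.84% of all genes). The median log2 fold changes of the 29 were 0.24 and 0.17 for treatment in control and Sox2Hi tumours, against -0.18 and 0.09 over all genes.

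The largest rises in control tumours were those of Mgst1, a microsomal glutathione transferase of the family of Ptges and Ltc4s (log2 fold change 2.72, SE 0.22, edgeR adjusted p = 3.6e-05), Fpr2, a formyl peptide receptor that also binds lipoxin A4 (1.91, SE 0.22, adjusted p = 0.000162), and Pla2g7, which hydrolyses platelet-activating factor (1.50, SE 0.24, adjusted p = 0.00065). Mgst1 rose from 93.0 ± 12.3 CPM (n = 3) to 614 ± 59.8 CPM (n = 2) in control tumours and from 84.2 ± 21.4 CPM to 281 ± 53.1 CPM in Sox2Hi tumours. In Sox2Hi tumours Mgst1 (1.74), Fpr2 (1.26) and the phospholipase Pla2g16 (1.23) rose the most. These 3 and Pla2g7 (0.87) and Fam213b (0.97), a prostamide and prostaglandin F synthase, were the 5 that rose. The largest falls in control tumours were those of Mgst3 (-1.13), which belongs to the same family as Mgst1, the prostaglandin transporter Slco2a1 (-0.92) and the phospholipase Pla2g4e (-0.85), and in Sox2Hi tumours the acyl-CoA synthetase Acsl4 (-0.63) alone fell. The call of Acsl4 was lost in 9 of 23 alternatives, among them the fits without Sox2Hi treated replicate 1 (-0.38, edgeR adjusted p = 0.259) and replicate 2 (-0.98, adjusted p = 0.0721). The other rises in control tumours were those of Pla2g16 (1.13), Dpep2 (1.09, adjusted p = 0.015), a dipeptidase of leukotriene D4, Cyp4f18 (1.07, adjusted p = 0.00431), which oxidises leukotriene B4, Fam213b (0.87) and Cysltr1, and the other fall was that of the aldose reductase Akr1b3 (-0.69). Dpep2, Cyp4f18 and Akr1b3 are named after their values were seen. Cyp4f18 went from 1276 ± 429 CPM (n = 3) to 2675 ± 44.5 CPM (n = 2) in control tumours, and was at 0.14 in Sox2Hi tumours (adjusted p = 0.709) with an interaction of -0.93 (adjusted p = 0.0971). Under the all-gene scaling its value in Sox2Hi tumours was -0.13 and its interaction passed (-1.77, adjusted p = 0.00476). Under the all-gene scaling Mgst3 (-0.62), Slco2a1 (-0.36), Pla2g4e (-0.29) and Akr1b3 (-0.16) were not called in control tumours, and Acsl4 (-0.90), Pla2g7 (0.61) and Fam213b (0.71) were not called in Sox2Hi tumours.

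Between naive grafts Pla2g4e (-0.82) and Slco2a1 (-0.74) were lower in Sox2Hi tumours, and neither was called under the all-gene scaling. Their calls were lost in 13 and 10 of 23 alternatives. Between treated grafts Mgst1 (-1.13), Fpr2 (-1.03) and Pla2g7 (-0.85) were lower and Slco2a1 (0.66) was higher in Sox2Hi tumours. The call of Slco2a1 there was lost in 20 of 22 alternatives (down to 0.0907) and that of Pla2g7 in 12 of 23 (-1.40 to -0.58), against 3 of 23 for Fpr2 and 1 of 23 for Mgst1. The interaction called Mgst1 (-0.99, SE 0.31, edgeR adjusted p = 0.0446), Slco2a1 (1.39, SE 0.27, adjusted p = 0.00398) and Pla2g4e (1.28, SE 0.36, adjusted p = 0.0277). The background share limits the last 2, which averaged at most 12.1 and 8.23 CPM in any group, and neither passed once the background was subtracted (Slco2a1 at 0.92, adjusted p = 0.234, Pla2g4e at 0.95, adjusted p = 0.265). Mgst1 did not pass then either (-0.95, adjusted p = 0.0956). Over all alternatives the interaction call was lost in 13 of 21 for Pla2g4e (0.23 to 1.45), in 10 of 22 for Mgst1 and in 3 of 21 for Slco2a1.

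Several genes just upstream and downstream of the 8 genes did not pass in any comparison. Pla2g4a, the cytosolic phospholipase that releases arachidonic acid, averaged 70.3 CPM in naive and 88.0 CPM in treated control tumours and 72.3 and 82.7 CPM in Sox2Hi tumours, and was called in no comparison. Tbxas1 (thromboxane synthase, 16.5, 23.0, 15.2 and 25.3 CPM in that order), Hpgds (a prostaglandin D synthase also in the mast cell list, 22.6, 17.5, 15.7 and 14.3 CPM), Ptger2 (a prostaglandin E2 receptor, 10.6, 11.8, 10.2 and 11.8 CPM) and Ltb4r1 (the leukotriene B4 receptor, 28.1, 42.1, 35.0 and 39.4 CPM) were not called either. Cysltr1, a receptor for cysteinyl leukotrienes, rose on treatment in control tumours (18.5 to 30.7 CPM, log2 fold change 0.73, edgeR adjusted p = 0.0279) and was at 0.17 in Sox2Hi tumours (adjusted p = 0.65), with an interaction of -0.57 (adjusted p = 0.311). Hpgd, which inactivates prostaglandins, Ptgis and the prostaglandin E2 receptor Ptger4 were under 5 CPM on average and were not tested.

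**Figure D5:**
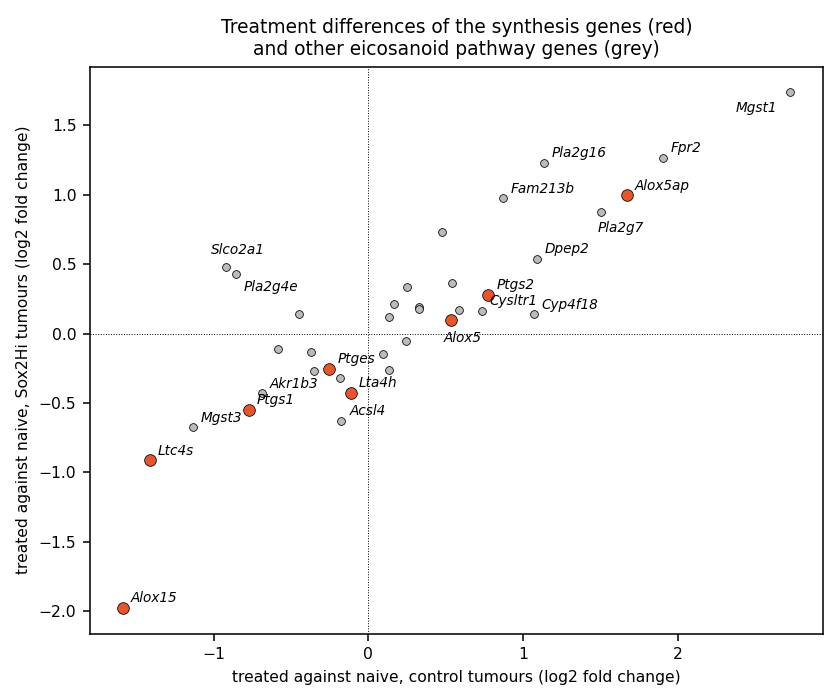
Log2 fold change on treatment in control tumours (horizontal) and Sox2Hi tumours (vertical) for the 8 synthesis genes (red) and the 29 other pathway genes tested (grey), with names for the synthesis genes and for genes called on either axis. The 2 axes use different libraries but 1 set of scaling factors. Mgst1 lies at 2.72 and 1.74, Alox5ap at 1.67 and 1.00, and Alox15 at -1.58 and -1.98, while Slco2a1 and Pla2g4e lie below 0 on the horizontal axis and above 0 on the vertical axis.

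Across the 10 libraries, the patterns of the 8 genes were compared by Pearson's r of log2(CPM + 1), which here follows the 4 groups and shares their factors, so it is a description. Among the 8, the highest r were 0.80 between Lta4h and Alox15 and 0.78 between Ptgs2 and Alox5ap, and the lowest were -0.79 between Alox5ap and Ltc4s and -0.79 between Alox5ap and Ptgs1. Among 9682 other genes, Alox5ap was most like Fam32a (r = 0.998), Pilra (0.997) and Cdk2ap2 (0.997), and Ptgs1 was most like Ssbp3 (0.979), Zbtb4 (0.979) and Cd151 (0.977). Ptgs2 was most like Elf4 (0.935), Klf2 (0.929) and Atf6 (0.909), and Ptges was most like Rpain (0.953), Ptpn11 (0.951) and Adamts1 (0.949). Lta4h was most like Eral1 (0.961), Eif3g (0.954) and Tmx2 (0.954), and Ltc4s was most like Col15a1 (0.958), a collagen of basement membranes, Zfp512 (0.946) and Prpf3 (0.937). Alox5 was most like Gcnt2 (0.931), Parvg (0.926) and Rassf5 (0.902), and Alox15 was most like Timm29 (0.926), Rrnad1 (0.921) and Gle1 (0.905).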

How the data were processed

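The authors deposited counts for each gene and library in 1 table; the submitters' processing notes name kallisto 0.44.0 and mm10, with no role given. Strandedness is not given in the sources used here. All values are whole numbers, and the 4 of at least 1000000 end in 0, so they may be rounded estimates. Per the labels' protocols, a microprep kit yielded the RNA and a low input kit the libraries. Of 55481 entries, 96 that are not mouse genes (at most 0.00277% of counts) were left out of library sizes and tests. Symbols and coordinates are those of GENCODE M21 (GRCm38), with 55144 of 55385 identifiers matched. Columns that no library claimed numbered 0.

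Genes averaging 5 CPM or more (11274) set library sizes and TMM factors (0.743 to 1.22) and were tested in edgeR 4.0.16 (R 4.3.3) with the quasi-likelihood F-test, 4 groups in 1 model and Benjamini-Hochberg adjustment over all of them. Intervals are 95% t intervals. CPM carry these factors. A gene's expected background was its exon length times the median count per kb of 1464 olfactory and vomeronasal receptor genes. The genes described, the pathway and marker lists and the choice of scaling were made with earlier results of these data known. Named besides the 8 were 9 pathway genes whatever their result, the 3 largest rises and falls among called pathway genes in each comparison, and the 3 most similar genes. Fam213b, Dpep2, Cyp4f18 and Akr1b3 were added after their values were seen, so that every pathway gene called on treatment is named.

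Replicates of a group differed by more than counting noise (smallest chi-square per degree of freedom 12.5). For naive libraries that share a title number, deviations from the group means correlated at 0.273, 0.325 and 0.474, so these numbers pair the naive libraries. Ddx3y counts followed the title number in the naive libraries (4, 3854 and 1436 in control, 6, 2814 and 1007 in Sox2Hi tumours). They followed it in the control treated libraries (8 and 6618) and not in the Sox2Hi treated ones (3980 and 7). The meaning of a number is not in the labels. Across treatments, control treated libraries correlated at 0.153 to 0.246 with naive libraries of the same title number. Sox2Hi treated libraries did so at -0.280 to 0.0850. By description number the correlations across treatments ran from -0.280 to -0.0477. The treated pairs gave -0.0952. Alternatives were other scalings and filters, DESeq2 1.42.0, limma-voom (limma 3.58.1), background subtraction, replicate blocks, a Ddx3y covariate, fits of the groups compared alone and leaving out each library.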

Additional observations from a re-analysis of the deposited data

How the results depend on the processing

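With 2 or 3 libraries a group and fewer than 450 counts a library for Ltc4s and Alox15, small differences of the low genes are not detectable here. Over the 8 genes and 5 comparisons, 910 pairs of a difference and an alternative gave the same call and direction in 764 cases, lost a call in 39, gained one in 40 and turned the sign in 67, all of the last in differences that were not called. The causes were not tested, except that fewer genes are tested at a minimum of 20 CPM, which leaves out Ltc4s and Alox15, and that a group of 2 with 1 library left out has a lone sample assumed to vary like the other groups.

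Counts of the 8 genes called are given in the order treatment in control tumours, the same in Sox2Hi tumours, naive grafts, treated grafts and interaction, each with the percentages of all genes tested that were called. They were 5, 2, 1, 1 and 0 as reported (57.3, 21.6, 14.0, 20.9 and 19.8%). They were 3, 1, 1, 1 and 4 both with the all-gene scaling (34.0, 3.61, 1.87, 13.7 and 27.5%) and over every gene with a count (14.7, 1.69, 1.22, 5.94 and 12.3%), and 3, 2, 0, 0 and 0 at a minimum of 20 CPM (59.0, 31.2, 7.11, 10.2 and 7.51%). RLE factors gave 4, 3, 1, 1 and 0 (1045 higher and 1210 lower of 11274 genes in the second, and 56.0, 9.49, 20.4 and 24.2% in the others) and library totals 5, 4, 1, 2 and 0 (66.5, 26.9, 9.01, 26.2 and 19.8%). DESeq2 gave 4, 4, 1, 1 and 2 (58.0, 27.0, 16.6, 27.9 and 29.8%), limma-voom 5, 4, 3, 0 and 0 (59.8, 33.4, 36.6, 15.8 and 24.4%), and background subtraction 4, 3, 1, 0 and 0 (49.4, 18.8, 7.20, 8.08 and 11.6%). The groups compared alone gave 5, 4, 0 and 1 (48.9, 30.2, 0.160 and 7.41%), and the Ddx3y covariate 4, 2, 1, 1 and 0 (55.0, 17.4, 12.6, 18.8 and 18.9%). The replicate block by title number gave 5, 2, 2, 2 and 1 (56.4, 17.7, 17.7, 28.1 and 24.0%), and the replicate block by description number 4, 2, 1, 1 and 0 (54.1, 25.9, 12.8, 15.4 and 17.4%). The replicate block over the naive libraries alone called 3 (22.0%). Keeping the expressed-gene factors while testing all 29648 filtered genes called 54.6, 6.33, 13.2, 18.2 and 36.9% of those genes. Without 1 library the counts ran from 3 to 5, from 0 to 4, from 0 to 1, from 0 to 1 and from 0 to 0. In fits without 1 naive library, 49.5% to 59.6% of genes were called on treatment in control and 5.86% to 29.4% in Sox2Hi tumours. The shares were 0.0355% to 17.7% between naive grafts, 15.2% to 25.7% between treated grafts and 16.1% to 22.9% for the interaction. Beside the genes named in the report, the replicate block by title number changed no other call of the 8, and the block by description number lost only Ptgs1 in control tumours (-0.741).

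These log2 fold changes turned sign. For treatment in control tumours, Ptges was at 0.259 and Lta4h at 0.426 with the all-gene scaling, Ptges at 0.349 and Lta4h at 0.528 over every gene with a count, and Lta4h at 0.0391 with RLE factors and 0.0385 with DESeq2. For treatment in Sox2Hi tumours, Alox5 was at -0.172 with the all-gene scaling, -0.27 over every gene, -0.00196 with RLE factors, -0.212 with library totals, -0.00216 with DESeq2 and -0.0666 with the replicate block by title number, and Ptgs2 at -0.0835 over every gene and -0.0412 with library totals. Between naive grafts, Alox5ap was at 0.214 with the all-gene scaling and 0.321 over every gene, Ptges at -0.0795 with limma-voom and Ltc4s at -0.01 after background subtraction. Between treated grafts, Ptges was at -0.341 with the all-gene scaling, -0.454 over every gene, -0.0695 with RLE factors, -0.0699 with DESeq2 and -0.081 with the block by description number, and Ltc4s at -0.0637 over every gene. There Ptgs2, Alox5 and Lta4h were at 0.0111, 0.125 and 0.1 at a minimum of 20 CPM and at 0.181, 0.315 and 0.264 with library totals, and Alox5 at 0.0405 with limma-voom, 0.105 with the block by description number and 0.00924 with the Ddx3y covariate. For the interaction, Ptgs1 was at -0.572 with the all-gene scaling, -0.761 over every gene, -0.0277 with RLE factors and -0.0278 with DESeq2, Ltc4s at -0.371 and -0.599 with the first 2 of these, and Ptges at 0.125 at a minimum of 20 CPM, 0.174 with library totals, 0.239 with limma-voom, 0.0332 with the block by title number and 0.0235 with the Ddx3y covariate.

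Without 1 library, these ranges crossed 0. In control tumours they were -0.609 to 0.253 for Ptges and -0.154 to 0.0447 for Lta4h, and in Sox2Hi tumours -0.343 to 0.372 for Alox5. Between naive grafts they were -0.359 to 0.0515 for Alox5ap, -0.148 to 0.465 for Ltc4s and -0.088 to 0.299 for Ptges. Between treated grafts they were -0.572 to 0.501 for Alox5, -0.11 to 1.3 for Ltc4s and -0.39 to 0.472 for Ptges. For the interaction they were -0.312 to 0.469 for Ptgs1, -0.568 to 0.294 for Ptges, -0.216 to 1.19 for Ltc4s and -0.693 to 0.0873 for Alox15.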
